A study of Homo sapiens with 2 samples.

Results

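Occupancy of the genome by Capicua (CIC) was mapped by ChIP-Seq, in which DNA bound by a protein is pulled down with an antibody and sequenced. The cells were PNT2, a prostate epithelium line derived from normal human tissue and immortalized. The CIC antibody gave 1 library and nonspecific IgG gave 1 control library. Both came from cells grown in the same medium, and the labels give no treatment or genetic change for either. With 1 library per group there was no replicate, so every value below describes these libraries and no test was run. The regions described here were chosen by the position of their summit, the point of highest read pileup, among the regions that the authors called in CIC over IgG. A summit had to lie on chromosome 7 at 20.15 to 21.06 Mb, on chromosome 2 at 175.15 to 175.25 Mb, on chromosome 13 at 100.58 to 100.68 Mb or on chromosome 18 at 19.70 to 19.80 Mb. These 4 windows hold SP8 and its neighbours, SP9, the ZIC5 and ZIC2 pair, and GATA6. Of the 178 regions in the list, 16 met the rule, with 8 in the SP8 window, 4 in the SP9 window, 3 in the ZIC5-ZIC2 window and 1 in the GATA6 window. Since the choice already required a called region, the presence of CIC signal in each window is not a finding.

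CIC is an HMG-box transcriptional repressor that acts downstream of receptor tyrosine kinase signaling. When the RAS and ERK cascade is active, CIC is phosphorylated and its repression of target genes is relieved. The 5 genes encode zinc finger transcription factors known from embryonic development. SP8 and SP9 are closely related members of the SP family and act in limb outgrowth and in forebrain interneurons. ZIC2 and ZIC5 lie next to each other in the genome and act in neural tube and forebrain patterning, and loss of ZIC2 causes holoprosencephaly. GATA6 drives endoderm, heart and pancreas programs. ChIP-Seq measures occupancy, and no transcript of these genes was measured here.

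The submitters' processing notes place the positions on the hg19 build, and no sequence or annotation of that build was used here. The distance of a region from a start site, and whether it lies in a promoter, exon or intron, were therefore not determined. The link between a window and a gene rests on the rule alone. By the order of protein-coding genes in RefSeq on GRCh38.p14, SP8 (gene ID 221833) lies between ABCB5 and SP4. SP9 (gene ID 100131390) lies between OLA1 and CIRSR. ZIC5 (gene ID 85416) and ZIC2 (gene ID 7546) are adjacent, with CLYBL and PCCA on either side. GATA6 (gene ID 2627) lies between MIB1 and CTAGE1.

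Promoter sequences of the genes came from RefSeq on GRCh38.p14, each from 250 bases before to 50 bases after a gene's start. They matched SP8, ZIC5, ZIC2 and GATA6, in 6 promoters because ZIC5 has 3 listed starts. Of the ZIC5 promoters, 2 share a long stretch of sequence, so the 6 are not all separate. SP9 was not matched, so its promoter was not searched. SP8 had the most regions in its window and GATA6 the highest fold enrichment, so the promoters of these genes are shown, on the minus strand of chromosome 7 and the plus strand of chromosome 18. Capitals mark GGAA, the core of the sites bound by ETS factors, on either strand, so that TTCC is its reverse complement.
SP8: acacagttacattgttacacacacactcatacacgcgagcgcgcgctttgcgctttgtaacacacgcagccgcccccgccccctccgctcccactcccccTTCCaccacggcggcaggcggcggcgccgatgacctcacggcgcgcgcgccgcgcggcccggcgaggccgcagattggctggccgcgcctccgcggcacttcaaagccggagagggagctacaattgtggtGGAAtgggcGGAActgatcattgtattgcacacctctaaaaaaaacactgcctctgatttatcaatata
GATA6: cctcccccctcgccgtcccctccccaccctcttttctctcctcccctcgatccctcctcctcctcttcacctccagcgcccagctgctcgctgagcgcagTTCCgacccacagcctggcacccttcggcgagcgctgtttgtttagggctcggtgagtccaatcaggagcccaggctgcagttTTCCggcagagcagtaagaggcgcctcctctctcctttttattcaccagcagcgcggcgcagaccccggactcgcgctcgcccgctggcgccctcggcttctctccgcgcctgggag
The SP8 promoter held 3 GGAA cores and the GATA6 promoter 2. The ZIC5 promoters held 1, 1 and 3 and the ZIC2 promoter held 0, where 95.5% of all 35116 RefSeq promoters held at least 1. CIC binds octamers with an AAT core, and 2 sets of these were searched on both strands. The first set was TGAATGAA, TGAATGGA, TCAATGAA and TCAATGGA, which differs from the general motif as the study writes it. The study also names TGAATGGA as a CIC motif in the regulatory element of ETV1. Of the 6 promoters, 0 held an octamer of this set, where 3.77% of all promoters did. The second set, added after the data were seen, was the study's general motif, spelled out as TGAATGAA, TCAATGAA, TGAATAAA and TCAATAAA. It was found in 1 of the 6 promoters, that of GATA6, where 4.52% of all promoters held it. The match is TGAATAAA on the strand opposite to the printed one, and it starts at base 221 of the printed sequence. Among the matched genes of each family, GATA6 included, the first set was found in 0 promoters and the second in 0 of 9 SP, 0 of 9 ZIC and 1 of 10 GATA promoters. No region was placed against these stretches, so the counts describe the printed windows and say nothing of the sequence under the regions.

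The value reported for each region is the authors' fold enrichment, which is the CIC pileup at the summit over the local background set by IgG, with 1 added to each. The number of reads behind it was recovered from the fold and the p-value. Regions are numbered along the chromosome within each window, and positions count the first base as 1. A q-value of at most 0.05 was given to 15 of the 16 regions and to 91.6% of all 178. At 0.01 or less it was again 15 of 16, and 81.5% of all regions. As the rule drew on the same contrast, these shares are given as description.

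SP8 had the most regions, in a window of 910 kb where each of the others was 100 kb wide, so the number and spread of its regions follow in part from the rule. Its 8 regions spanned 879 kb and fell into a group of 5 within 9.84 kb and 3 regions that lay far from it. The group, regions 3 to 7, ran from 20823249 to 20833088 on chromosome 7 and had 430 kb free of regions on one side and 218 kb on the other. From region 3 to region 7 the summits were 4127, 1890, 857 and 2754 bp apart. Chromosome 7 held 31 of the 178 regions of the list, the 8 of this window included.

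SP8 region 4, at chr7:20827219-20828013, was 795 bp wide and had the most CIC reads of the window. Its summit held 23 CIC reads (95% interval by the exact Poisson method, 14.6 to 34.5), a fold enrichment of 6.22 and a q-value of 3.13e-06. The remaining members of the group were 156 to 278 bp wide. SP8 region 3, at chr7:20823249-20823404, had 16 CIC reads, a fold of 5.17 and a q-value of 0.00174. Its width of 156 bp was the smallest of the whole list, shared by 13 regions. It equals the fragment length given under the processing.

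SP8 region 5, at chr7:20829299-20829570, had 14 CIC reads, a fold of 4.27 and a q-value of 0.120. It was the only one of the 16 regions above a q-value of 0.05, and its support is accordingly weaker. SP8 region 6, at chr7:20829955-20830232, had 17 CIC reads, a fold of 4.94 and a q-value of 0.00150. Regions 5 and 6 were separated by 384 bp, and their summits lay at 12.3% and 84.4% of the width, toward the outer edges of the pair.

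SP8 region 7, at chr7:20832868-20833088, had 20 CIC reads, a fold of 4.13 and a q-value of 0.00937. Its fold was the lowest of the 16, while its CIC reads were above the median of 17. The background there was 3 and came from 3 IgG reads at the summit itself.

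The 3 regions away from the group were narrow. SP8 region 1, at chr7:20172348-20172548, had 21 CIC reads (95% interval, 13.0 to 32.1), a fold of 7.74 and a q-value of 3.05e-08. SP8 region 2, at chr7:20392654-20392865, had 16 CIC reads, a fold of 5.96 and a q-value of 0.000174. SP8 region 8, at chr7:21050856-21051111, had 22 CIC reads (95% interval, 13.8 to 33.3), a fold of 7.81 and a q-value of 7.25e-09. Regions 1 and 8, the first and last of the window, thus had its highest folds.

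The 2 sets of SP8 regions overlapped in CIC reads, with 14 to 23 in the group and 16 to 22 in the other 3. The background was 1.59 to 3 in the group and 1.23 to 1.31 in the other 3 as point values. The fold was 4.13 to 6.22 in the group and 5.96 to 7.81 outside it. The ranges of fold thus met only between 5.96 and 6.22. In the group the backgrounds of regions 3 to 7 rested on 102, 13, 114, 12 and 3 IgG reads, counted over 10 kb, 1 kb, 10 kb, 1 kb and at the summit. Outside it those of regions 1, 2 and 8 rested on 79 reads over 10 kb, 8 over 1 kb and 84 over 10 kb. Over 10 kb the counts were thus 102 and 114 in the group and 79 and 84 outside it, and over 1 kb 13 and 12 against 8. No interval was computed for a difference in background between the sets. Whether the sets differ in background was not tested, nor was the part of background in the folds.

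**Figure D1:**
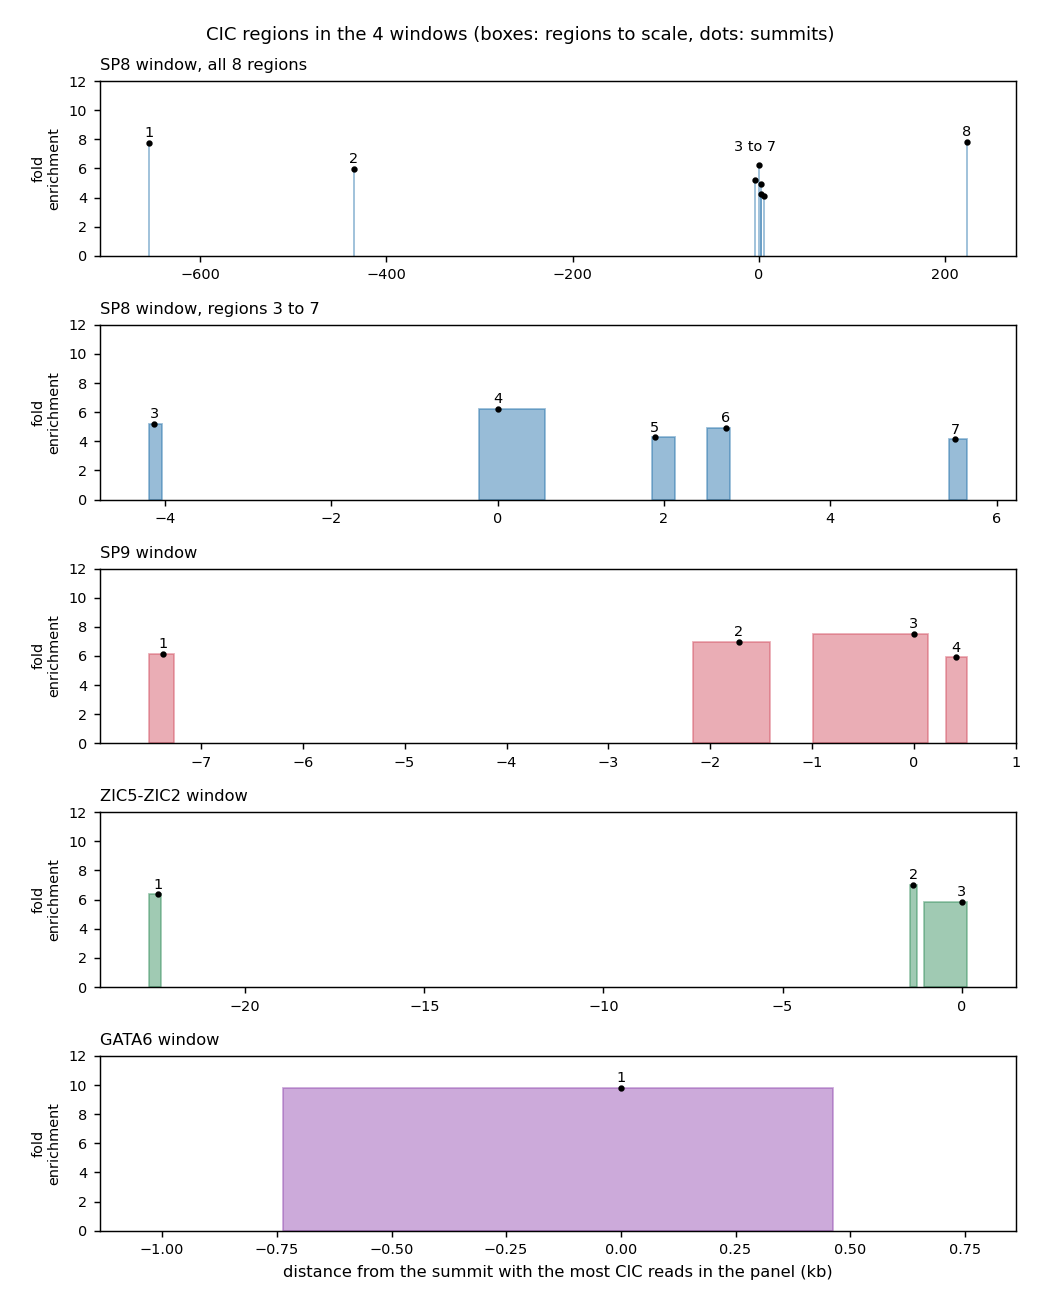
Fold enrichment of CIC over IgG (vertical axis) against distance in kb from the summit with the most CIC reads in each panel, with regions as boxes to scale, dots at summits and numbers as in the text. The SP8 window holds regions 3 to 7 within 9.84 kb and regions 1, 2 and 8 far from them, the SP9 window 4 regions within 8.03 kb, the ZIC5-ZIC2 window a pair and 1 region 21.1 kb away by summit, and the GATA6 window 1 region of 1199 bp.

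SP9 had 4 regions within 8034 bp, of which the last 3 formed a near-continuous stretch of 2694 bp. SP9 region 1, at chr2:175196991-175197237, had 16 CIC reads, a fold of 6.13 and a q-value of 0.000103. It lay 5093 bp before the next region. SP9 region 2, at chr2:175202331-175203092, was 762 bp wide and had 17 CIC reads, a fold of 6.93 and a q-value of 3.19e-06.

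SP9 region 3, at chr2:175203514-175204636, was the strongest of the window by each of these values. It was 1123 bp wide and had 19 CIC reads (95% interval, 11.4 to 29.7), a fold of 7.52 and a q-value of 6.65e-07. Its summit lay at 88.0% of the width, close to the following region. SP9 region 4, at chr2:175204820-175205024, had 17 CIC reads, a fold of 5.90 and a q-value of 7.99e-05. The gaps in this stretch were 421 and 183 bp, and the last 2 summits lay 413 bp apart. The 4 regions differed by at most 3 CIC reads, which is within the counting error of each.

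ZIC5 and ZIC2 had 3 regions in their shared window. ZIC5-ZIC2 region 1, at chr13:100625590-100625932, had 16 CIC reads, a fold of 6.36 and a q-value of 5.16e-05. The other 2 followed after a gap of 20906 bp and were themselves 192 bp apart. ZIC5-ZIC2 region 2, at chr13:100646839-100647041, had 16 CIC reads, a fold of 7.04 and a q-value of 6.58e-06. Its background was the genome-wide rate of 0.905, a floor that other regions shared.

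ZIC5-ZIC2 region 3, at chr13:100647234-100648431, was 1198 bp wide with its summit at 87.4% of the width. It had 29 CIC reads at the summit (95% interval, 19.4 to 41.6), the most of the 16 regions. Its background was also the highest of the window, at 3 from 3 IgG reads. Its fold was therefore 5.87, the lowest of the 3, while its q-value of 1.61e-07 was the smallest. At this locus the region with the most reads thus had the lowest fold. Of the 4 regions on chromosome 13, 3 lay in this window, where chromosomes 7 and 2 held 31 and 21 regions in all.

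GATA6 had 1 region, which was the only region of the list on chromosome 18. GATA6 region 1, at chr18:19747120-19748318, was 1199 bp wide and had 24 CIC reads at the summit (95% interval, 15.4 to 35.7). Its fold of 9.80 and q-value of 9.37e-12 were the strongest of the 16 and ranked 11 and 13 among all 178 regions. The background of 1 came from 1 IgG read at the summit. With nothing added to either side, CIC stood 18.6 times over background, with an exact 95% interval of 3.03 to 765. That interval counts the 1 IgG read alone and leaves out the genome-wide rate of 0.905, below which no background fell. Its upper end is therefore not a bound on the deposited fold.

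**Figure D2:**
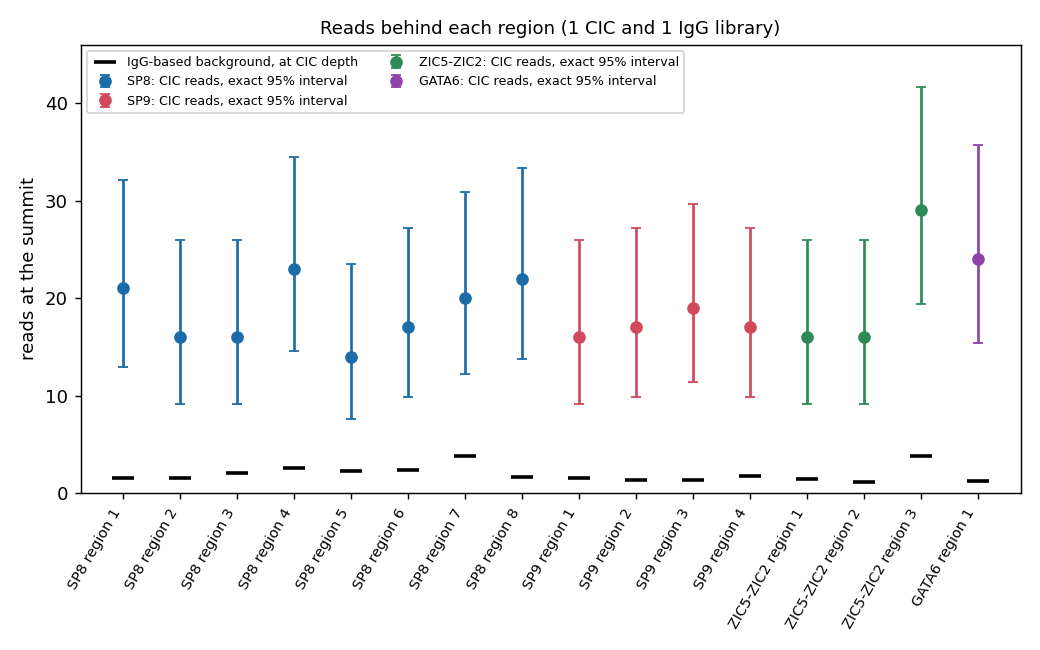
Reads at the summit (vertical axis) for each of the 16 regions, with CIC reads as points, exact Poisson 95% intervals as bars and the IgG-based background at the depth of the CIC library as black dashes. CIC reads ran from 14 to 29 and all bars overlap each other, while each bar lies above its dash, as the calling of regions requires.

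The order of the 16 regions was not resolved by the intervals computed here. For the ratio without the added 1, values ran from 5.17 at SP8 region 7 to 18.6 at the GATA6 region. The exact 95% intervals overlapped in 120 of 120 pairs of regions, and the intervals of CIC reads did so in 120 of 120 pairs. Neither neighbours in the order nor its ends had intervals that lay apart, although overlap of intervals does not show that values are equal. Where the background was a summit count, the ratio's interval rests on 1 or 3 IgG reads and is wide. The background was held fixed only where it was the genome-wide rate, so the overlap depends on this choice of interval. The lower bounds of the ratio ran from 1.53 to 7.84, so that each lay above 1, which the calling of regions selects for.

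**Figure D3:**
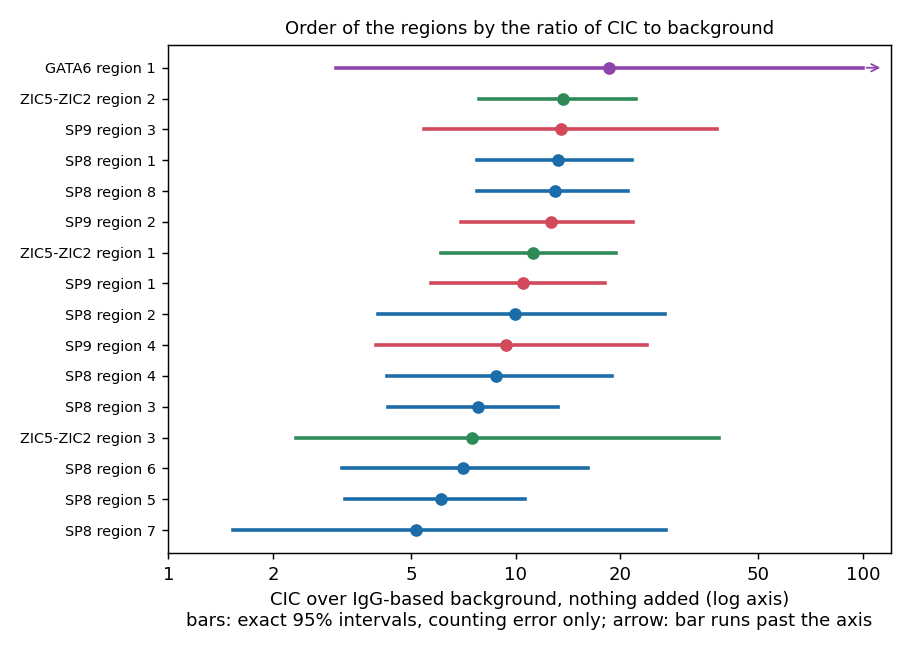
CIC over IgG-based background with nothing added (horizontal log axis) for the 16 regions in order of this ratio, with bars for exact 95% intervals that cover counting error only. The GATA6 region is highest at 18.6, with an arrow because its bar runs past the axis to 765, SP8 region 7 is lowest at 5.17, and all bars overlap.

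The widths of the 16 regions left a gap that the rest of the list did not. There were 11 regions of 156 to 343 bp and 5 of 762 to 1199 bp, with none of the 16 in between. Other regions of the list did have such widths, for example 476, 603 and 700 bp. Each of the 4 windows held at least 1 of the 5 wide regions, namely SP8 region 4, SP9 regions 2 and 3, ZIC5-ZIC2 region 3 and the GATA6 region. In each window the region with the most CIC reads was a wide one. Width and reads both follow from the same pileup and are not independent. A width of 700 bp or more was found in 5 of 16 regions (31.2%) and in 25 of the 162 other regions (15.4%). That limit lies in the gap seen among the 16, so this contrast is a description. The median width was nevertheless 264 bp for the 16 and 290 bp for the others.

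In strength the 16 regions resembled the rest of the list. Their median fold was 6.18, with quartiles of 5.70 and 7.16, and that of the 162 other regions was 5.97, with quartiles of 4.94 and 7.08. Of the 16, 9 lay above the median fold of the others and 7 below it, and 0 were among the 10 regions with the highest fold. The median number of CIC reads was 17 for the 16 and 18 for the others, with quartiles of 15 and 23 for the others. The median background was 1.28 and 1.40. The median −log10 q-value was 4.73 and 4.19. In each of these measures the quartile ranges of both sets overlapped.

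**Figure D4:**
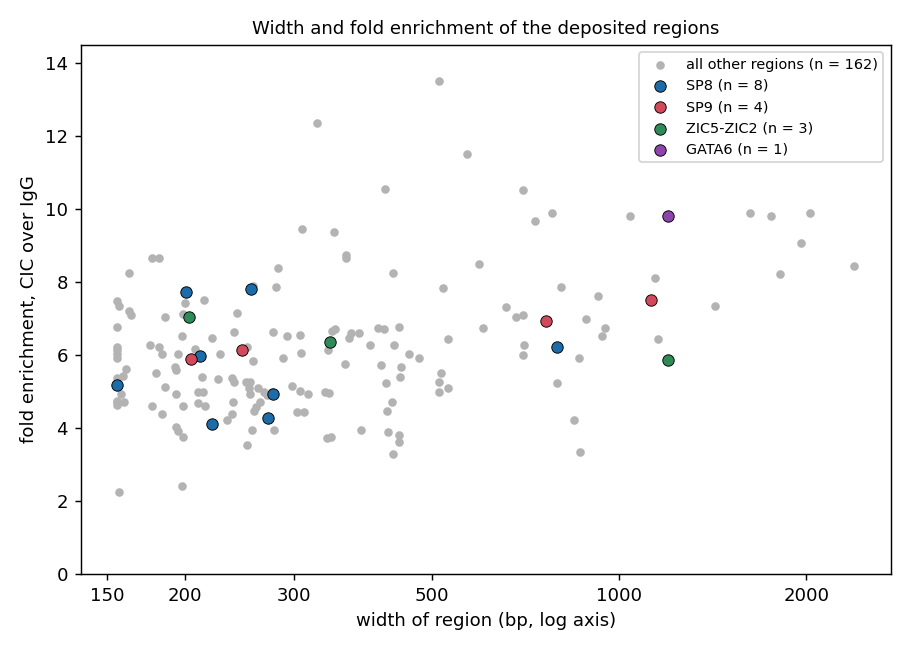
Fold enrichment of CIC over IgG against the width of each region in bp (log axis), with the 16 regions coloured by window and the 162 other regions in grey. The coloured points lie inside the cloud of grey points, with 5 at widths of 762 bp or more and the GATA6 region highest at a fold of 9.80.

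In spacing the SP8 and SP9 windows were among the most crowded of the list when gaps of up to 10 kb were allowed. When regions with gaps of 10 kb or less were taken as a set, the SP8 group of 5 was the largest set, and the SP9 regions formed 1 of the other 2 sets with 4. Of the 16 regions, 9 (56.2%) were in a set of 3 or more, against 22 of the 162 other regions (13.6%). The windows were picked for their regions, so this contrast is a description. With q-values of 0.05 or less the SP8 set had 4 regions and the SP9 set still 4, equal to the largest set elsewhere. Gaps of 1 kb or less joined 7 of the 16 regions (43.8%), and 47 of the others (29.0%). By window these were 2 of 8 for SP8 (25%), 3 of 4 for SP9, 2 of 3 for ZIC5-ZIC2 and 0 of 1 for GATA6. At this limit the SP8 window was thus not more crowded than the others. With these joined, the 16 regions became 12.

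No other CIC region lay within 1 Mb of a window. Distances between the other regions were not compared, so whether this is particular to the windows was not tested. The nearest region outside the SP8 window lay 3.33 Mb before SP8 region 1, at chr7:16844741-16845032, with a fold of 6.52 and 18 CIC reads. On the other side the nearest lay 4.85 Mb after SP8 region 8. For SP9 the nearest regions lay 1.55 Mb before and 1.76 Mb after, with folds of 6.52 and 7.87. For ZIC5 and ZIC2 the nearest lay 5.26 Mb before, with a fold of 7.31, and none followed on chromosome 13. A window extended by 1 Mb on either side gained 0 regions at each of the 4 loci.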

How the data were processed

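PNT2 chromatin was fixed in 1% formaldehyde and sheared by sonication per the labels, while the study's own methods describe an enzymatic kit. The submitters' processing notes name bcl2fastq 2.17, Trimmomatic 0.33, Bowtie 1.1.2, MACS2 2.1.0 and hg19. The study states a false discovery rate limit of 0.05 for its list, while 163 of the 178 deposited regions have a q-value at or under it, and all 178 were kept here. Other caller settings, duplicate handling and filters on problem regions are not given in the sources used here. The caller compared 1 CIC library with 1 IgG library, without pooling. The authors deposited a fold enrichment (a linear ratio), a −log10 p-value, a −log10 q-value and a score for each region. The deposited score repeats the −log10 q-value, multiplied by 10 and cut to a whole number, for all 178 regions.

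Each fold was read as (scaled CIC reads + 1) / (background + 1), and each p-value as a Poisson upper tail. With a scale of 0.775, all 178 regions came out within 7.9e-05 of a whole number of CIC reads. The scale puts the depth of CIC at 1.29 times that of IgG. Total reads were not used. Backgrounds were whole IgG reads at the summit, the lowest value (0.905), or counts over 1 kb or 10 kb at a fragment length of 156 bp. Values that fit both lengths were read as 1 kb, which gives the wider interval. The recovery was tried on simulated lists made by the same formulas. Such lists cannot show that the authors' values were made in this way. Intervals on CIC reads are exact Poisson and those on ratios are exact binomial, from the share of CIC among both libraries' reads, or exact Poisson where the genome-wide rate was the background. The libraries were amplified and carry no molecular identifiers, so reads may repeat molecules and intervals cover counting error only.

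Every region with a summit in a window was named, and gene neighbours came from RefSeq on GRCh38.p14, whose positions were not used. The regions and gene lists were chosen with earlier results of these data known. Python 3.11.15, numpy 2.4.6, pandas 2.3.3 and scipy 1.17.1 were used. Alternatives on q-value, fold, joining, window limits, the added 1 and the octamer were tried.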

Additional observations from a re-analysis of the deposited data

How the results depend on the processing

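Of 26 alternative values, 23 stayed within the limits set for change and 3 moved. This tally does not measure robustness, since several of the 23 values could hardly move. Windows extended by 1 Mb gained 0 regions, so their values equal the main ones. The q-value limits of 0.05 and 0.01 kept the same 15 regions and are not separate checks. The limits for the medians were also wide, at 5.17 to 7.52 for fold and 205 to 795 bp for width. The number of regions was 16, and 9 at a fold at or above the median of all 178 regions, which removes regions by construction. The other alternatives gave 12 to 16. The median fold of 6.18 became 10.2 as a ratio with nothing added, since the added 1 lowers the ratio by construction. Otherwise it was 6.18 to 7.04. The median width was 256 to 343 bp and the median number of CIC reads 17 to 19 over the alternatives. The number of promoters with a CIC octamer was 0 of 6, and 1 of 6 with the general motif as the study writes it. That alternative and the one on sizes of sets were chosen after the data were seen. The planned searches of the regions, with all octamers or TGAATGGA alone, were not run, since they need the sequence of hg19. No paired analysis was possible because CIC and IgG had 1 library each. Depth limits the order of the regions, as the intervals of the ratio overlap in all 120 pairs, and the GATA6 ratio rests on 1 IgG read.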
